A study of Mus musculus with 6 samples.

Results

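The genes described here are markers and effectors of T cells and cytotoxic lymphocytes. They form a list of 10 genes, of which 9 were measured among 22180 genes in all. The listed genes are Cd3e, Cd3d, Cd3g, Cd2, Cd8a, Lck, Nkg7, Gzma, Gzmb and Prf1. A gene was read from its array probe sets that carry 1 gene symbol, and the probe set with the highest mean was to stand for it. Each of the 9 had 1 such probe set, and Lck had none and was not analysed here. The data are 6 Affymetrix arrays, 3 from mice with acute myeloid leukemia (AML) and 3 from mice with chronic myeloid leukemia (CML). Every sample is RNA of primary sorted osteoblastic cells from bone marrow, called stromal in the titles, and every mouse carried Col2.3 GFP, a green fluorescent reporter driven by a Col1a1 promoter fragment that is active in bone-forming cells. The titles assign the leukemia, whereas all 6 source names read CML, so each direction rests on the titles. The labels do not say how either leukemia was raised, or the strain, age or number of mice. Nothing in them says that arrays of a group came from separate mice, so the spread behind the p-values may be technical.

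T cells recognise antigen through a receptor whose signal is carried by the CD3 chains. The kinase LCK, held at the coreceptors CD4 and CD8, starts that signal. Cytotoxic T cells and natural killer (NK) cells kill by releasing granules that hold perforin, which opens the target membrane, and granzymes, the proteases that enter through it. In marrow, T and NK cells are a minority beside the developing myeloid, erythroid and B lineage cells. A sort for osteoblastic cells is not meant to collect any of these.

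Values below are log2 of the deposited intensity. Probe sets differ in how well they bind, so the level of one gene does not give its amount relative to another gene. To show where dim values lie, 1088 olfactory receptor genes, which marrow is not known to use, were read on the same arrays, a choice made after the data were seen. Their median was 2.52 to 2.60 on the AML arrays and 2.73 to 2.77 on the CML arrays, and their 95th percentile was 4.31 to 4.55 on AML and 4.72 to 5.10 on CML. The median of all genes was 4.38 to 4.48 on AML and 4.47 to 4.64 on CML. No detection call was used here. Fewer cells of a type and less RNA per cell cannot be told apart in such bulk samples.

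Of the 9 genes, 7 had a mean level below that of the median gene, and Nkg7 alone was bright on every array. No gene of the 9 passed the threshold, a Benjamini-Hochberg adjusted p under 0.05 in a limma fit over all genes, where 1.91% of all genes passed. At an unadjusted p under 0.05, Nkg7 and Prf1 passed, 2 of 9 against 21.5% of all genes. By value 8 of the 9 were lower in AML and Nkg7 was higher, while 61.7% of all genes were lower. The groups did not overlap for Nkg7, with AML higher, as for 13.3% of all genes, nor for Prf1, with AML lower, as for 17.9% of all genes. The median change of the 9 genes, AML minus CML, was -0.34, against -0.11 for all genes. For the 8 genes other than Nkg7, a set trimmed after the values were seen, it was -0.34, against -0.20 for the lower 50% of all genes by mean level and -0.17 for the olfactory receptor genes. Of these last 2 sets, 83.2% each were lower in AML, so a small negative value was the usual one for a dim gene here.

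**Figure D1:**
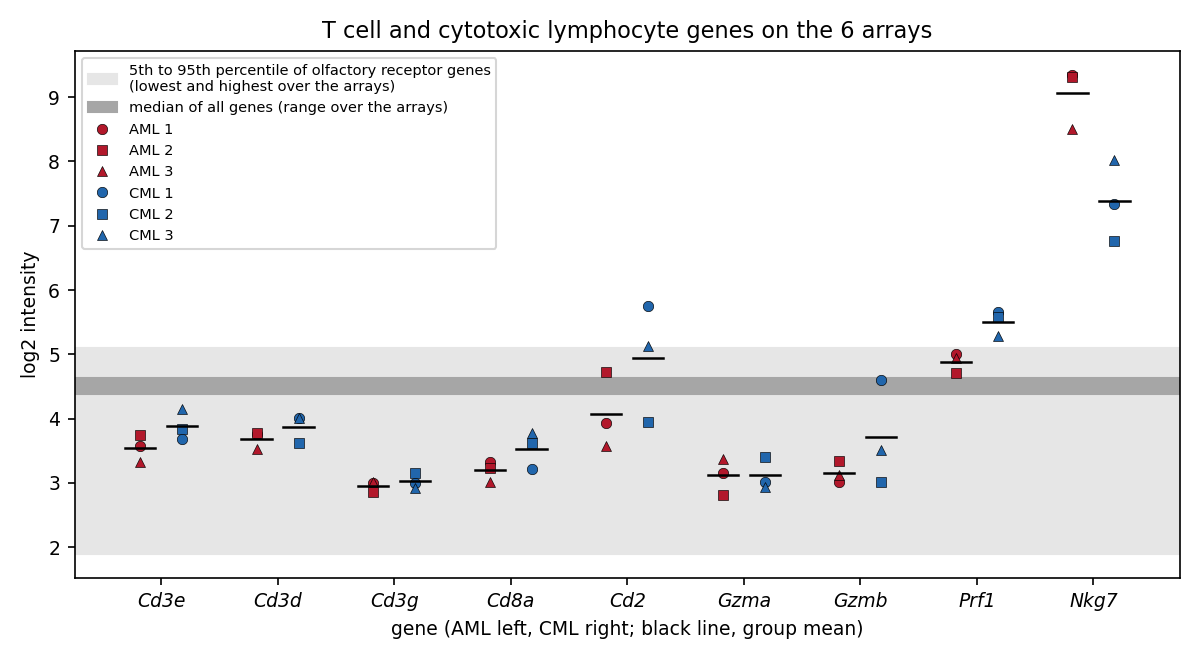
Log2 intensity of the 9 measured genes on the 3 AML arrays (red, left of each pair) and the 3 CML arrays (blue, right), with a black line at each group mean (n = 3 each). The light band runs from the lowest 5th to the highest 95th percentile of the olfactory receptor genes over the arrays, the dark band covers the array medians of all genes, and Nkg7 stands above both on every array.

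Nkg7 encodes a membrane protein of cytotoxic granules in NK and T cells that takes part in their release. In mouse marrow its transcript is also known from myeloid progenitors. Nkg7 (probe set 17477101, chromosome 7) was at 9.35, 9.31 and 8.51 on AML 1, 2 and 3, and at 7.34, 6.77 and 8.02 on CML 1, 2 and 3. Every AML array was above every CML array, with AML 3 and CML 3 closest to each other. It lay between the 85.9 and 98.3 percentile of all genes on the 6 arrays. The means were 9.06 ± 0.48 on the AML arrays and 7.38 ± 0.63 on the CML arrays (SD, n = 3 each), a difference of 1.68 ± 0.37 (SE), or 3.20-fold. The 95% interval ran from 0.79 to 2.57, and the gene did not pass (limma adjusted p = 0.0789). It passed with the arrays centred on their medians (limma adjusted p = 0.0443) and not after quantile normalization (0.176) or cyclic loess (0.248).

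The mean levels of the primary granule, pan-leukocyte, and monocyte and macrophage markers were also higher on each AML array than on each CML array. The B lineage, basophil and mast cell and erythroid markers were lower in AML by value. The 8 markers of primary granules and myeloid progenitors had a mean level of 9.28 to 10.44 on AML and 6.49 to 7.11 on CML, and 7 of the 8 rose in limma (1.83% of all genes did). Among them Elane, the neutrophil elastase, averaged 11.04 ± 0.65 on the AML arrays and 7.19 ± 0.32 on the CML arrays, and Mpo, the myeloperoxidase, 10.43 ± 0.54 on AML and 7.78 ± 0.25 on CML (SD, n = 3 each; limma adjusted p = 0.0151 and 0.0221). The 12 pan-leukocyte markers had a mean level of 8.75 to 9.54 on AML and 6.70 to 8.46 on CML. All 12 were higher in AML by value, and 2 of them passed the threshold. At an unadjusted p under 0.05 in limma, 10 of the 12 were higher, against 12.6% of all genes. Ptprc, which encodes CD45, was at 8.82 ± 0.59 in AML and 6.46 ± 1.67 in CML and did not pass (limma adjusted p = 0.176). The 9 monocyte and macrophage markers had a mean level of at least 6.06 on AML and at most 5.75 on CML. By value 6 of these 9 were higher in AML and 3 lower. Within CML the pan-leukocyte mean was highest on CML 1, whereas Nkg7 was highest on CML 3, as were the primary granule mean and the monocyte and macrophage mean. The part of these cells in the Nkg7 difference was not tested, and these marker lists were set beside Nkg7 after the values were seen.

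The upstream window of Nkg7 is shown because it was the member with a clear signal, with those of Prf1, the dimmer effector whose groups did not overlap the other way, and Cd3e, a defining T cell gene that stayed dim. Each run holds the 250 bases before the gene's start in the RefSeq promoter table of GRCm38.p6, 5′ to 3′ on the gene's strand. Capitals mark matches, on either strand, to a RUNX motif (TGTGGT), an ETS motif (AGGAAG), a T-box motif (AGGTGTGA) and a C/EBP motif (TTGCNNAA). No marked matches overlap in these windows.
Nkg7, chr7:43436888-43437137, plus strand: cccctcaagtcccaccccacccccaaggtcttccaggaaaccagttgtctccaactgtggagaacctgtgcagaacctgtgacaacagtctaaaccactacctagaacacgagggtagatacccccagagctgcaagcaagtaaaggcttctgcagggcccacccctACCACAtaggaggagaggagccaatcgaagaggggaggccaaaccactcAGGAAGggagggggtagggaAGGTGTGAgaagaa
Prf1, chr10:61297586-61297835, plus strand: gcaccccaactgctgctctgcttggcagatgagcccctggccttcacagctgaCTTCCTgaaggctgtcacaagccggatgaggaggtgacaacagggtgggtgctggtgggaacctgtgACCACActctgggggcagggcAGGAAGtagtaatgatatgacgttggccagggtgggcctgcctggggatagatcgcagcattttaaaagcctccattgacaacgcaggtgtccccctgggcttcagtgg
Cd3e, chr9:45009612-45009861, minus strand: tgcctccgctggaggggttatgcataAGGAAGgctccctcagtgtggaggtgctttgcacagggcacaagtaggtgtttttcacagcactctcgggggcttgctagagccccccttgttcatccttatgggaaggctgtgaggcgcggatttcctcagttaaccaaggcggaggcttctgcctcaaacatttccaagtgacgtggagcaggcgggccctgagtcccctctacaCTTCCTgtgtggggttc
The Nkg7 window held 1 RUNX, 1 ETS and 1 T-box match, beginning 83, 34 and 14 bases before the start. The Prf1 window held 1 RUNX match at 130 bases and 2 ETS matches at 197 and 109 bases. The Cd3e window held 2 ETS matches, at 224 and 17 bases. Of 32851 such windows in the table, 14.0% held the RUNX motif, 29.5% the ETS motif, 1.12% the T-box motif and 9.56% the C/EBP motif. The table held a window for 8 of the 9 measured genes. A match describes these letters and is not evidence of binding.

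The CD3 chains, which define T cells, were dim in both leukemias. Cd3e (probe set 17526464, chromosome 9) was at 3.57, 3.74 and 3.33 on AML 1, 2 and 3 and at 3.69, 3.83 and 4.15 on CML 1, 2 and 3. Cd3d (probe set 17516691, chromosome 9) was at 3.76, 3.78 and 3.53 on the AML arrays and 4.0, 3.62 and 4.0 on the CML arrays. Cd3g (probe set 17526456, chromosome 9) was at 3.00, 2.85 and 3.01 on AML and 3.00, 3.16 and 2.93 on CML. The groups overlapped for all 3 genes, and each value lay below the median gene and below the 95th percentile of the olfactory receptor genes of its array. The differences were -0.34 ± 0.19 for Cd3e, -0.19 ± 0.17 for Cd3d and -0.07 ± 0.14 for Cd3g (SE; limma adjusted p = 0.309, 0.50 and 0.748). Their 95% intervals were -0.79 to 0.10, -0.59 to 0.22 and -0.40 to 0.26. The sign of Cd3g turned under the 3 other scalings, with values of 0.07 to 0.09, and that of Cd3d under cyclic loess, at 0.04.

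Cd8a, which encodes a chain of the coreceptor of cytotoxic T cells, was dim as well. Cd8a (probe set 17459482, chromosome 6) was at 3.33, 3.24 and 3.02 on the AML arrays and 3.22, 3.62 and 3.77 on the CML arrays. CML 1 fell within the AML range, and CML 2 and CML 3 lay above it. The difference was -0.34 ± 0.19 (SE; limma adjusted p = 0.318). Cd4, the coreceptor of helper T cells and no member of the list, averaged 3.92 ± 0.02 on the AML arrays and 4.39 ± 0.40 on the CML arrays (SD, n = 3 each; limma adjusted p = 0.256).

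Cd2, an adhesion receptor of T and NK cells that mouse B cells also carry, spread most among the dim genes. Cd2 (probe set 17408497, chromosome 3) was at 3.93, 4.72 and 3.57 on AML 1, 2 and 3 and at 5.75, 3.95 and 5.12 on CML 1, 2 and 3. CML 1 and CML 3 were above all AML arrays, while CML 2 sat within their range. The means were 4.08 ± 0.59 on the AML arrays and 4.94 ± 0.91 on the CML arrays (SD, n = 3 each), a difference of -0.87 ± 0.50 (SE; limma adjusted p = 0.331). Without CML 1 the difference was -0.46, and without CML 2 it was -1.36. The mean level of the 9 measured B lineage markers was 4.13, 5.08 and 4.06 on AML 1, 2 and 3, against 7.08, 4.23 and 5.71 on CML 1, 2 and 3, so it was highest on the same 2 arrays as Cd2. Vpreb3, a gene of early B cells, was at 4.62, 6.55 and 4.94 on AML and at 10.06, 5.23 and 7.09 on CML. Cd79b, a chain of the B cell receptor, was at 6.72, 7.14 and 6.25 on AML and at 9.07, 5.12 and 6.88 on CML. The mean level of the 10 measured osteoblast markers was 6.20, 7.07 and 5.68 on AML and 7.15, 6.28 and 8.94 on CML. It was thus highest on CML 1 and CML 3 as well, as were the granulocyte and endothelial means. The part of B lineage, osteoblastic or other cells in the level of Cd2 was not tested.

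Among the granule effectors, both granzymes were dim, and perforin was lower on each AML array than on each CML array. Gzma (probe set 17296286, chromosome 13) was at 3.16, 2.82 and 3.38 on the AML arrays and 3.02, 3.40 and 2.93 on the CML arrays. These ranges nearly coincide, with a difference of -0.001 ± 0.21 (SE) and a 95% interval from -0.50 to 0.50. Gzmb (probe set 17307033, chromosome 14) was at 3.02, 3.34 and 3.12 on AML and 4.60, 3.01 and 3.52 on CML. CML 1 stood above the other 5 arrays, and the difference of -0.55 ± 0.39 (SE; limma adjusted p = 0.408) became -0.10 without it. The mean level of the 10 basophil and mast cell markers was 4.46, 4.90 and 4.44 on AML 1, 2 and 3, against 7.13, 4.82 and 4.74 on CML 1, 2 and 3, so CML 1 was their highest array too. Mcpt8, a basophil protease, was at 6.93, 5.37 and 4.87 on AML and at 10.90, 6.13 and 6.43 on CML, and Hdc, the histamine-forming enzyme, at 6.50, 6.32 and 5.20 on AML and 9.66, 6.45 and 6.65 on CML. The 11 dendritic cell markers, some of them of plasmacytoid cells, which can also hold granzyme B, had a mean level of 4.74 to 5.11 on AML and 4.66 to 4.98 on CML. The mean level of the B lineage markers was also highest on CML 1, at 7.08. A peak there was thus not particular to the basophil and mast cell markers. The part of any of these cells in the level of Gzmb was not tested. These marker lists were set beside Cd2 and Gzmb after the values were seen.

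Prf1 encodes perforin. Prf1 (probe set 17233694, chromosome 10) was at 5.01, 4.70 and 4.94 on AML 1, 2 and 3 and at 5.67, 5.58 and 5.28 on CML 1, 2 and 3. Every AML array was below every CML array. On each array it lay above the 95th percentile of the olfactory receptor genes and above the median gene, between the 54.4 and 73.3 percentile. The means were 4.89 ± 0.16 on the AML arrays and 5.51 ± 0.20 on the CML arrays (SD, n = 3 each), a difference of -0.62 ± 0.17 (SE) with a 95% interval from -1.02 to -0.22. It did not pass (limma adjusted p = 0.119). The value was negative under the 3 other scalings, from -0.63 to -0.47, and with each array left out, from -0.74 to -0.53. A further probe set is shared with another gene symbol and was left out.

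**Figure D2:**
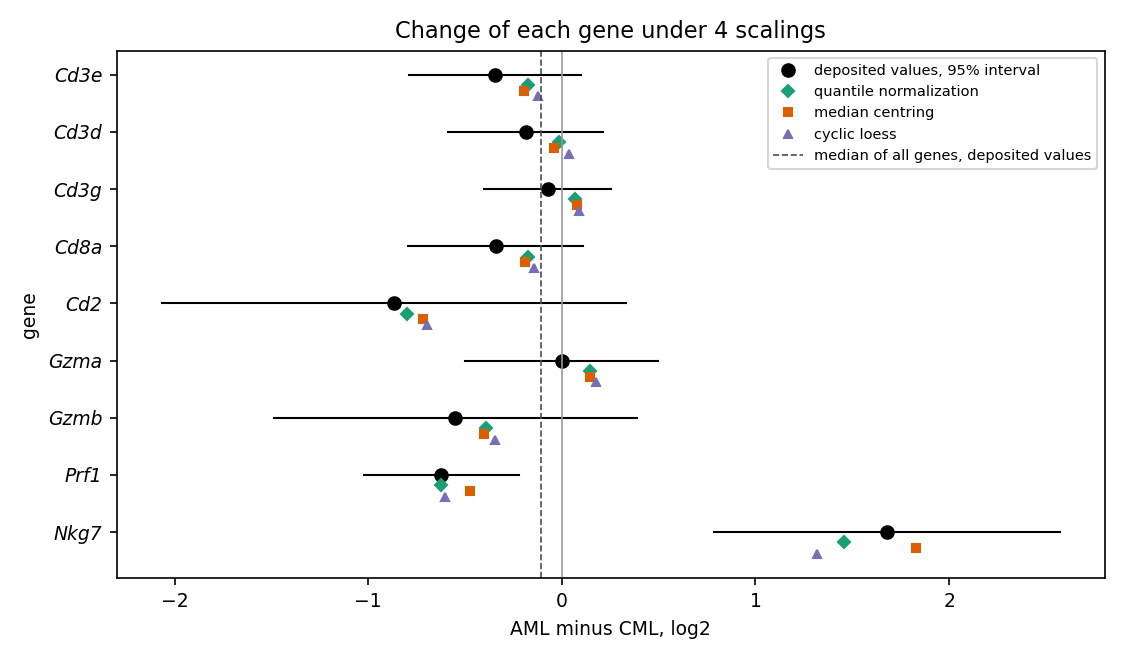
Difference AML minus CML on the log2 scale for the 9 genes, with the 95% interval of the limma fit on the deposited values (black) and the values after quantile normalization, median centring and cyclic loess (coloured). The dashed line marks the median of all genes, -0.11. Nkg7 lies to the right at 1.68, Prf1 lies left of 0 under each scaling, and the markers of Cd3d, Cd3g and Gzma fall on both sides of 0.

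Around these 9 genes, 5 further lists of T and NK genes held 97 genes, of which 83 were measured. Of the 83, 5 rose in AML and 0 fell in limma, 6.02% against 1.91% of all genes, and 1.83% of all genes rose. The 5 were Rab27a, Hcst, Il18rap, Stxbp2 and Id2, and as background several of them are also used by myeloid cells. At an unadjusted p under 0.05, 12 of the 83 were higher and 10 lower in limma, against 12.6% and 8.99% of all genes. By value 60 of the 83 were lower, and the median change was -0.21, against -0.11 for all genes. Leaving out 1 array changed the count: 0 of the 83 passed without AML 1, without AML 2 or without CML 3, 1 passed without AML 3, 5 without CML 2 and 6 without CML 1. Over all 22180 genes limma also called 0 without AML 1, without AML 2 or without CML 3, where 3048, 3750 and 3533 had an unadjusted p below 0.05, and it called 279 without AML 3, 357 without CML 2 and 438 without CML 1. After quantile normalization or cyclic loess 1 of the 83 passed, Rab27a, and after median centring 6 passed.

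Granule and effector genes gave 2 of the 5 calls. Of 21 measured genes, Rab27a and Stxbp2 rose, 0 fell, and the median change was -0.11. Rab27a, a small GTPase that docks secretory granules at the membrane in killer cells, neutrophils and pigment cells, was at 8.77, 7.97 and 7.66 on AML 1, 2 and 3 and at 4.69, 4.39 and 4.87 on CML 1, 2 and 3. The difference was 3.48 ± 0.31 (SE), or 11.2-fold, with every AML array above every CML array (limma adjusted p = 0.0151). It passed under the 3 other scalings and in 3 of the 6 leave-one-out fits, and the other 3 fits called no gene at all. Stxbp2, a partner of syntaxin in granule fusion, averaged 8.27 ± 0.20 on the AML arrays and 6.71 ± 0.48 on the CML arrays (SD, n = 3 each), a difference of 1.55 ± 0.26 (SE; limma adjusted p = 0.0456). Other granzymes, named after their values were seen, did not pass. Their differences were -0.60 for Gzmg, -0.45 for Gzmk, -0.29 for Gzmm, -0.129 for Gzmf, -0.098 for Gzmc and -0.055 for Gzmd. All of them except Gzmm lay below the 95th percentile of the olfactory receptor genes on each array.

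NK receptors and adaptors gave another 2 calls among 16 measured genes, both higher in AML (1.83% of all genes rose), with a median change of -0.17. At an unadjusted p under 0.05 in limma, 2 of the 16 were higher and 1 lower, against 12.6% and 8.99% of all genes. Hcst, the adaptor DAP10 that signals for the receptor NKG2D, was at 9.43, 9.43 and 9.21 on the AML arrays and 7.75, 6.45 and 6.90 on the CML arrays. The difference was 2.32 ± 0.33 (SE), or 4.99-fold, with no overlap (limma adjusted p = 0.0318). Il18rap, an accessory chain of the interleukin-18 receptor, was at 7.07, 6.45 and 6.21 on AML and 5.09, 3.90 and 4.04 on CML, a difference of 2.23 ± 0.37 (SE; limma adjusted p = 0.0440). Receptors that define NK cells did not pass. Ncr1, which encodes NKp46, averaged 4.19 ± 0.14 on the AML arrays and 4.58 ± 0.24 on the CML arrays (SD, n = 3 each; limma adjusted p = 0.250), and Klrk1, named after its values were seen, which encodes NKG2D itself, was at 2.84, 2.96 and 2.69 on AML and 2.94, 3.15 and 2.78 on CML.

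Among 14 measured transcription factors of T, NK and innate lymphoid cells, Id2 rose and 0 fell (1.83% of all genes rose). Id2, a helix-loop-helix protein that blocks E proteins and that NK and innate lymphoid cells need, averaged 7.78 ± 0.22 on the AML arrays and 6.04 ± 0.38 on the CML arrays (SD, n = 3 each), a difference of 1.75 ± 0.23 (SE; limma adjusted p = 0.0298). Lef1, named after its values were seen, is a factor of early T and B cells, and stood at 4.41, 5.18 and 4.24 on AML and 7.96, 4.70 and 6.53 on CML without passing (limma adjusted p = 0.242). CML 1 and CML 3 were its highest arrays, as they were for Cd2 and for the B lineage and osteoblast markers, among others. The factors Tbx21, Eomes, Gata3 and Bcl11b, also named after their values were seen, stood at -0.38, -0.47, -0.20 and -0.24 by value without passing. Runx3, Zbtb7b, Nfil3 and Satb1, named in the same way, stood at 0.58, 0.74, 0.81 and 0.44 without passing. By value 5 of the 14 were higher in AML and 9 lower. At an unadjusted p under 0.05 in limma, 3 of the 14 were higher and 0 lower, against 12.6% and 8.99% of all genes.

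T cell receptor signalling and surface genes gave 0 calls among 13 and 19 measured genes, with median changes of -0.27 and -0.33. At an unadjusted p under 0.05 in limma, 4 of the 13 and 6 of the 19 passed, against 21.5% of all genes. Of the 4, 2 were higher and 2 lower in AML, and of the 6, 1 was higher and 5 lower. In the first list Lcp2, the adaptor SLP-76 of T cells and myeloid cells, was 1.41 ± 0.33 higher by value, and Themis, a thymocyte protein, stood at -0.47 ± 0.14 (SE; limma adjusted p = 0.0912 and 0.147). In the second Ccr7, a homing receptor of lymphocytes and dendritic cells, stood at -0.58 ± 0.14 and Cd226, an activating receptor, at -0.67 ± 0.19 (SE; limma adjusted p = 0.0970 and 0.134).

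**Figure D3:**
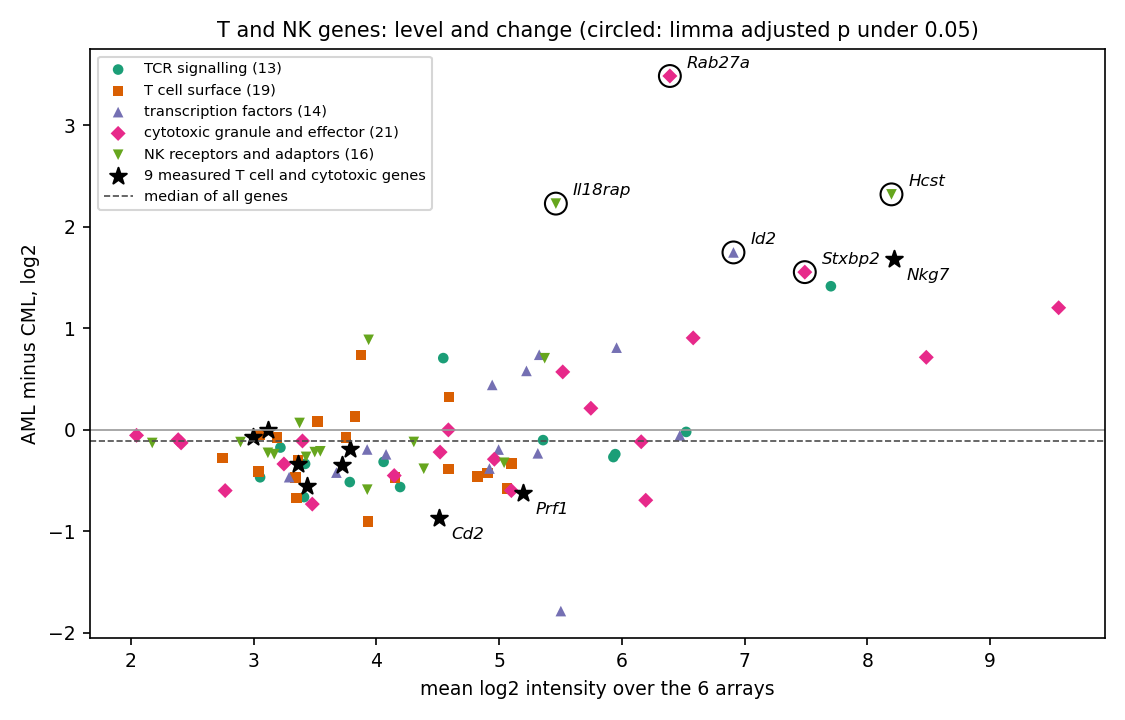
Mean log2 intensity over the 6 arrays (x axis) and difference AML minus CML (y axis) for the 83 genes of the 5 T and NK lists and for the 9 genes of the report (stars). The 5 circled genes passed limma, all of them above 0 and at mean levels above 5, Nkg7 lies near them, and the dim genes on the left gather just below 0.

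CML 1 was the highest array for 24 of the 83 genes, 28.9% against 18.3% of all genes, and CML 3 for 22, 26.5% against 26.8% of all genes. The mean level of the 8 genes other than Nkg7 was 3.60, 3.65 and 3.49 on AML 1, 2 and 3 and 4.12, 3.77 and 3.96 on CML 1, 2 and 3. That of the olfactory receptor genes was also lower on each AML array, at 2.752 to 2.834, than on each CML array, at 2.979 to 3.015. With Nkg7 kept, the groups overlapped, at 4.045 to 4.28 on AML and 4.106 to 4.478 on CML. Of the markers of the labelled lineage, Col1a1 was bright, at 8.63, 9.87 and 7.26 on AML and 10.22, 8.71 and 11.95 on CML. Others of that list, named after their values were seen, were dim on part of the arrays. Phex lay below the 95th percentile of the olfactory receptor genes on each AML array and on CML 2. Dmp1 and Bglap lay below it on some arrays of both groups. The 10 measured osteoblast markers averaged 5.68 to 7.07 on AML and 6.28 to 8.94 on CML, with overlap, and none passed in limma. At an unadjusted p under 0.05, 0 of the 10 passed as well, against 21.5% of all genes. Granulocyte markers were bright in both groups, with a mean level of 9.03 to 9.43 on AML and 8.15 to 9.79 on CML. Among them S100a8 lay at or above the 99.8 percentile of all genes on each array. Of the marker lists of other cells, 2 of 9 monocyte and macrophage markers rose (1.83% of all genes did), among them Cd68 by 2.80. Ly6c2 stood at 1.86 without passing. Mrc1, C1qa and C1qb of the same list, named after their values were seen, stood at -0.35, -0.36 and -0.75 without passing. None passed among 9 granulocyte, 4 erythroid, 8 endothelial, 9 B lineage, 10 basophil and mast cell and 11 dendritic cell markers (3, 0, 1, 0, 1 and 3 at an unadjusted p under 0.05 in limma, against 21.5% of all genes). Their 2 brightest genes stood at 0.13 and 0.58 for S100a8 and S100a9, -2.63 and -1.58 for Slc4a1 and Tfrc, 0.66 and -0.47 for Vwf and Cdh5, and 2.42 and -0.17 for Irf8 and Bst2. Col1a2 of the osteoblast list stood at -1.10, and Rac2 and Arhgdib of the pan-leukocyte list at 1.26 and 1.25 without passing.

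The mean of the 9 genes, each centred on its own mean, ranged from -0.22 on AML 3 to 0.22 on CML 1. Among 4019 brighter and varying genes, the 5 whose values over the 6 arrays followed this mean most closely were Aurkc, Zdhhc8, Rcn1, Tarm1 and Cxcr2. Their Pearson correlations ran from 0.94 for Cxcr2 to 0.98 for Aurkc, as a description over 6 arrays with no test.

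**Figure D4:**
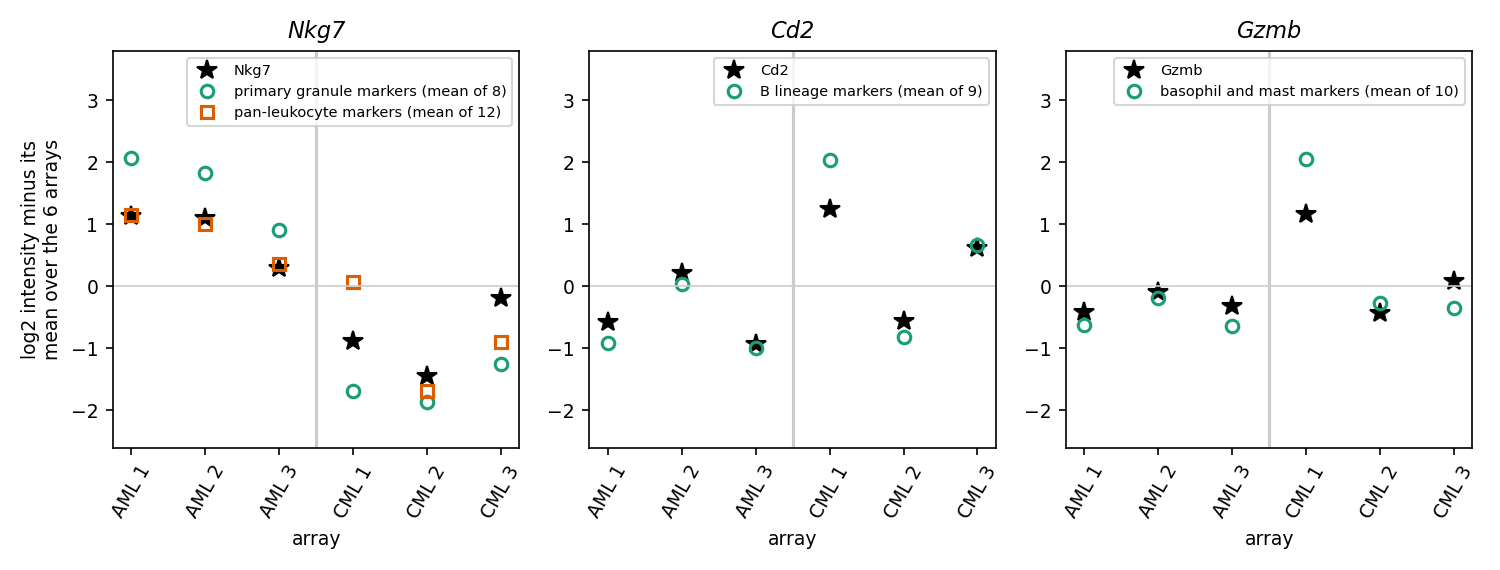
Log2 intensity of Nkg7, Cd2 and Gzmb on each array (stars), with the mean of marker lists of other blood cells (open symbols), all minus their own mean over the 6 arrays, AML left of the grey line and CML right. Nkg7 and the primary granule and pan-leukocyte markers are high on the AML arrays, Cd2 and the B lineage markers on CML 1 and CML 3, and Gzmb and the basophil and mast cell markers on CML 1. Of lists not drawn, the monocyte and macrophage mean was also higher on each AML array, and the osteoblast mean was highest on CML 1 and CML 3. The B lineage mean, like Gzmb, was highest on CML 1.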

How the data were processed

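Per the labels' protocols, RNA of sorted cells was extracted with a column kit, labelled with a terminal labelling kit and read on 1 Affymetrix array per sample. The submitters' processing notes list lumi and limma. The sources used here do not state how the authors corrected background or normalized the deposited intensity values; their scale was judged linear from the values, with array medians of 17.2 to 20.4.

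Of 39721 probe sets, 23521 carried 1 gene symbol, 1814 several and 14386 none in the platform annotation. Entrez identifiers of 23328 matched a RefSeq table of GRCm38.p6 and changed 0 symbols. The highest-mean probe set stood for each of 22180 genes. Log2 values were fitted in limma 3.58.1 (R 4.3.3), two-sided, as AML minus CML over all genes, with no filter. On simulated data, with noise drawn independently for each gene and array, median estimates lay near the planted changes and most signs were right. That check required nothing of the share of planted changes that passed the threshold. Array numbers limit the precision.

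The members, gene lists and alternatives were chosen with earlier results of these data known. Named were the 9 members, up to 4 passing genes of each T and NK list or the 2 of lowest unadjusted p, the 2 brightest of each marker list, Ptprc, Col1a1, Cd4 and Ncr1, and the 5 genes most like the members' mean; the text says where others were chosen after their values were seen. Deviations of same-numbered AML and CML arrays from their group means had Pearson correlations over genes of 0.24, -0.30 and -0.25 for numbers 1, 2 and 3. The differently numbered AML 3 and CML 2 had 0.47. These values do not settle whether the arrays were paired. Figures used matplotlib 3.10.9.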

Additional observations from a re-analysis of the deposited data

How the results depend on the processing

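With the replicate number as a block, a pairing that the labels do not state, 0 of the 83 T and NK genes passed, against 5 without it, and 0 of the 9 members passed either way. The 83 genes gave 1 call after quantile normalization, 1 after cyclic loess and 0 with values below 16 raised to 16, and from 0 to 6 with 1 array left out. Of the members 1, Nkg7, passed after median centring, and 0 passed with any array left out. The median change of the members, -0.34, was -0.17 after quantile normalization, -0.19 after median centring, -0.12 after cyclic loess and -0.003 with the floor of 16. It was 0.53 when the dimmer 50% of genes was dropped, which leaves 2 of the 9 members, and ran from -0.36 to -0.12 with 1 array left out. Gzma turned sign at 0.14, 0.15 and 0.17 after quantile normalization, median centring and cyclic loess, and ran from -0.131 to 0.149 with 1 array left out, against -0.001 as fitted. Cd3g turned at 0.066, 0.076 and 0.089 under those 3 scalings, and Cd3d at 0.036 after cyclic loess. The cause was not tested. The CD3 chains, Cd8a and the granzymes did not pass, while among the 11090 genes of the dimmer 50% limma called 9 higher and 6 lower. All genes together gave 423 calls, 93 after quantile normalization, 64 after cyclic loess, 896 after median centring, 13 with the floor, from 0 to 438 with 1 array left out and 0 with the block, while 4777 and 3711 genes stood at an unadjusted p under 0.05 in limma without and with the block.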
